A study of Mus musculus with 24 samples.

Results

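The transcription factor Nrf2, its targets and other genes of glutathione and thioredoxin metabolism were followed in the livers of mice fed quercetin, a plant flavonol. The set was a list of 34 gene symbols, chosen by function, with earlier results of these data known. It holds Nrf2 and its inhibitor Keap1, and enzymes that make, recycle and use glutathione. It also holds the thioredoxin system, enzymes for quinones, carbonyls, epoxides and aldehydes, and the pentose phosphate enzymes. Of the 34 genes, 31 had a probe set that the platform annotation gives to that gene alone, among 18193 such genes. Prdx1 and Gsta1 were on probe sets that name several genes, and G6pdx was not analysed here. The livers came from 24 male BALB/c mice obtained at 6 weeks of age, with 6 mice in each of 4 diet groups. Control mice ate the purified diet AIN93G for 14 days, and the other groups ate it with 0.1%, 0.5% or 1.0% quercetin added. Total RNA of each mouse went on 1 Affymetrix array, and which mice shared a cage was not part of the fits.

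Nrf2, encoded by Nfe2l2, is held in the cytosol by Keap1, which passes it on for degradation. Oxidants and electrophiles, among them some plant polyphenols, modify Keap1 cysteines, and Nrf2 then enters the nucleus and binds antioxidant response elements together with a small Maf protein. Its targets supply glutathione, thioredoxin and NADPH and conjugate or reduce reactive compounds, which in the liver is a large part of the disposal of drugs and food constituents. Control of Nrf2 lies mostly in its protein, so the Nfe2l2 transcript is not a measure of Nrf2 activity.

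Promoter windows are shown for 4 of the members described in full, each window holding a match to the core of the antioxidant response element. The core was searched as TGACNNNGC and TGAGNNNGC on both strands. The windows run from 250 bases before to 50 bases after a gene start and come from RefSeq on build GRCm38.p6. Capitals mark the matches. The Srxn1 window lies at chr2:152105274-152105573 on the plus strand, with matches that begin 158 and 45 bases before the start and 28 bases after it. The Osgin1 window lies at chr8:119436897-119437196 on the plus strand, with a match 99 bases before the start. The Nfe2l2 window lies at chr2:75704614-75704913 on the minus strand, with a match 240 bases before the start. The Txnrd1 window, 1 of 3 listed for that gene, lies at chr10:82858956-82859255 on the plus strand, with a match 92 bases before the start.
Srxn1: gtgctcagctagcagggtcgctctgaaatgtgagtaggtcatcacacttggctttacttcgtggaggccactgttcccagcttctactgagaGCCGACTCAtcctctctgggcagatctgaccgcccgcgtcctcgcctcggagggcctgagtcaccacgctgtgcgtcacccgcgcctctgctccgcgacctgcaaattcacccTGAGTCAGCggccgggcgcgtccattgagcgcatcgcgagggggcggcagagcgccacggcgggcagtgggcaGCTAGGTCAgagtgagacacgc
Osgin1: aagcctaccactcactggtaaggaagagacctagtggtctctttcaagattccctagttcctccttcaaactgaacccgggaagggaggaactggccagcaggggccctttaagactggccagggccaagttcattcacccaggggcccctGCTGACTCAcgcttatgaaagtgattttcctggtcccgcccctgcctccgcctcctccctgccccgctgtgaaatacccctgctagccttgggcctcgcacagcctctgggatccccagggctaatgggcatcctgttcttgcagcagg
Nfe2l2: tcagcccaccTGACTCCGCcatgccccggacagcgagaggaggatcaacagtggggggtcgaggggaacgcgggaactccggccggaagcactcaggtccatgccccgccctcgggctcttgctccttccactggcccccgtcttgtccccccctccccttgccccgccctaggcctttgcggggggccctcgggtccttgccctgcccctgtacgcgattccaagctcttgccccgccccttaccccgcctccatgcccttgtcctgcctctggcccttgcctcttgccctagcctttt
Txnrd1: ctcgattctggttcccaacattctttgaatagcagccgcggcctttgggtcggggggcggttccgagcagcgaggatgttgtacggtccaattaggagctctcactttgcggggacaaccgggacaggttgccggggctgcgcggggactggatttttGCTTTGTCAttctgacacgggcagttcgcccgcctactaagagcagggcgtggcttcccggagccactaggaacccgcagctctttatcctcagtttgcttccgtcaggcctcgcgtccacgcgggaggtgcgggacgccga

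Among the 34 listed genes, 30 had a promoter window in the table. TGACNNNGC stood in a window of 9 of these 30 genes (30.0%), against 3781 of 27025 genes in the whole table (14.0%). The other form, TGAGNNNGC, stood in 7 of the 30 (23.3%), against 5364 of 27025 (19.8%). Either form stood in 14 of the 30 (46.7%), against 8314 of 27025 (30.8%). Srxn1 and Prdx1 had both forms, and Ephx1, Gss, Gclc, Aox1 and Gstm4 were not among the 14. Of the measured members with a window, 10 had an unadjusted limma p under 0.05 at a dose or for the slope. Either form stood in 5 of these 10 and in 7 of the 17 others. A match describes these letters only, and windows without one say nothing about Nrf2.

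No member passed the test at any dose. With limma and Benjamini-Hochberg adjustment over all genes, 0 of 31 members had an adjusted p under 0.05 at 0.1%, 0.5% or 1.0% quercetin against control, where 0.0%, 0.0165% and 0.022% of all genes did. The slope over dose, the log2 difference per 1% of quercetin in the diet, passed for 0 of 31 members and for 0.0989% of all genes. The test of any difference among the 4 diets also passed for 0 of 31, against 0.181% of all genes, and at an unadjusted p under 0.05 it held 8 of 31, against 9.49%. The lowest adjusted p among the members was 0.993 at 0.1%, 0.373 at 0.5%, 0.365 at 1.0% and 0.166 for the slope.

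The members were also counted at an unadjusted limma p under 0.05, beside the same share of all genes. At 0.1% quercetin 0 of 31 members were past it, against 5.11% of all genes. At 0.5% it was 3 of 31 (9.68%), against 7.65% of all genes, and all 3 members (Nfe2l2, Gclc and Osgin1) lay below control, as did 3.91% of all genes. That split turned with the scaling: 2 lay above and 1 below without normalization between arrays (7.78% of all genes past the limit), and 2 above and 2 below in values centred on array medians (7.83%). At 1.0% it was 8 of 31 (25.8%), against 8.92% of all genes. Of those 8, 5 lay above control (Gss, Srxn1, Ephx1, Aox1 and Gstm4), against 4.45% of all genes, and 3 lay below (Nfe2l2, Gclc and Pgd), against 4.47%. For the slope it was 11 of 31 (35.5%), against 10.9% of all genes, with 6 upward (4.86% of all genes) and 5 downward (6.05%). These counts are of members chosen with earlier results of these data known. They have no test of their own, and their size and balance depended on the scaling. Without normalization between arrays 2 of 31 were past the limit at 1.0%, both above control, against 6.05% of all genes. For the slope it was then 4 of 31, 3 upward and 1 downward, against 6.71%. Centred on array medians it was 7 of 31 at 1.0%, 2 above and 5 below control, against 8.33%, and 9 of 31 for the slope, 4 upward and 5 downward, against 9.34%.

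The sign of the members together depended on the dose and on the scaling of the arrays. In the quantile-normalized values 18 members lay above and 13 below control at 0.1%, 10 above and 21 below at 0.5%, and 16 above and 15 below at 1.0%. Their median log2 difference was 0.00415 at 0.1%, -0.0823 at 0.5% and 0.0148 at 1.0%, beside 0.0121, -0.0211 and -0.00991 for all genes. Without normalization between arrays the split at 0.5% turned to 26 above and 5 below, with all genes shifted by 0.15, and at 0.1% it was 24 above and 7 below, with all genes shifted by 0.11. Centred on array medians it was 18 above and 13 below at 0.5%, and 7 above and 24 below at 0.1%. At 1.0% it was 17 above and 14 below without normalization and 12 above and 19 below centred. The plot of differences for each dose shows the members in the order of their roles.

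**Figure D1:**
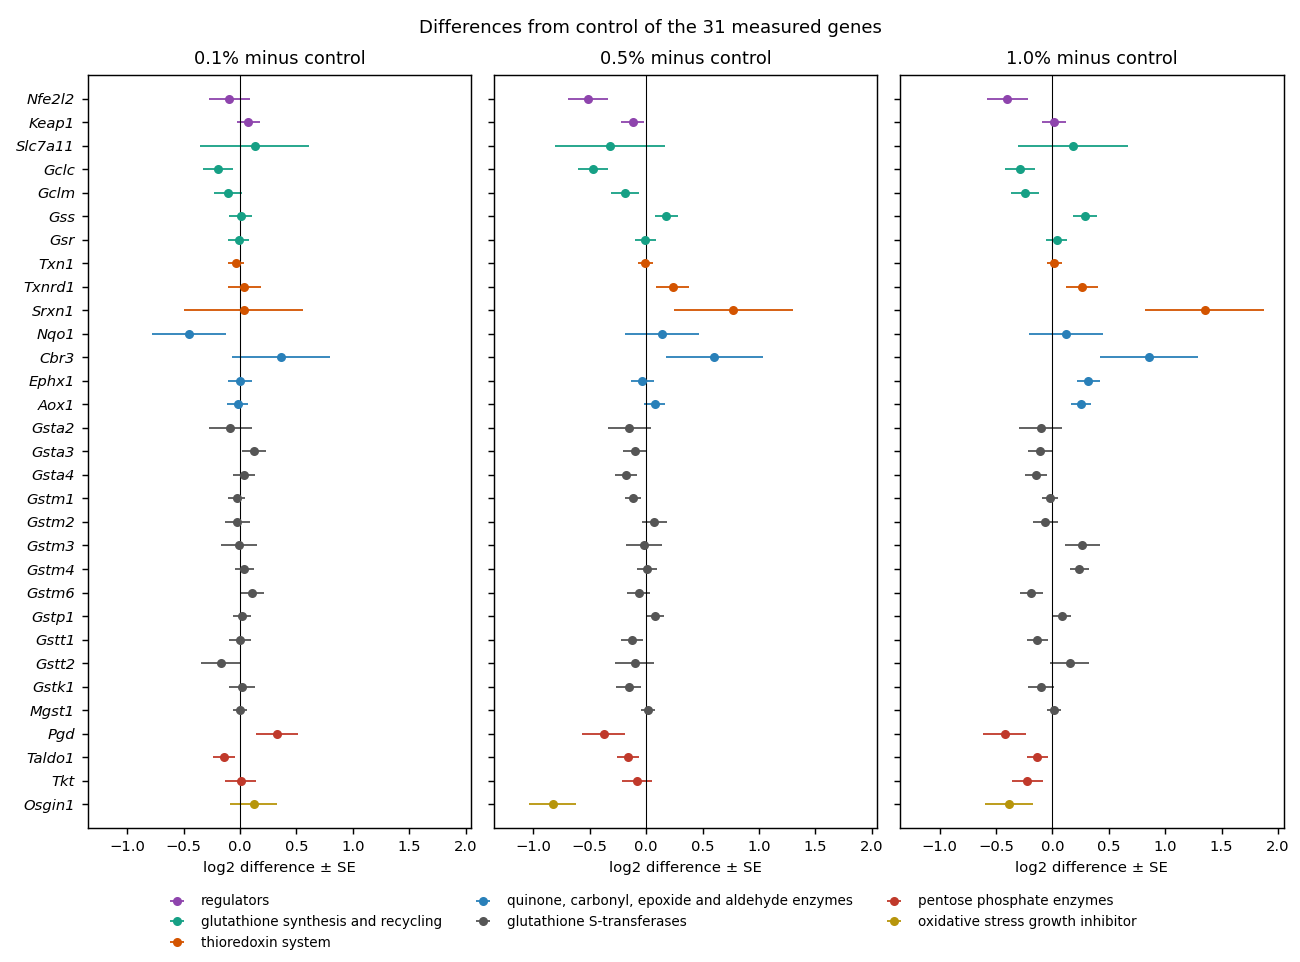
Log2 difference from control for the 31 measured members at 0.1%, 0.5% and 1.0% quercetin, with bars of 1 SE from limma over 24 arrays and colours by role. Srxn1 at 1.0% has the highest value, 1.35 (SE 0.53), and Osgin1 at 0.5% the lowest, -0.83 (SE 0.21).

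The livers showed their hepatocyte markers at every dose, with 12 of 12 brighter than the median gene. Of 11 neutrophil markers, 9 were measured and 3 of those were brighter than the median gene. All 9 lay above control at 1.0%, where 0 of them had an unadjusted limma p under 0.05, against 8.92% of all genes. Their summed normalized intensity ran from 83.0 to 154 (median 107) at 1.0% and from 53.9 to 84.7 (median 65.4) in control mice. At 0.1% it ran from 72.8 to 102 (median 82.0), and at 0.5% from 77.4 to 355 (median 92.2). A list of 6 immediate early and heat shock genes summed to a median of 2610 (749 to 5850) at 0.5%, against 660 (502 to 3660) in control mice. Its median was 550 (397 to 740) at 0.1% and 613 (355 to 1210) at 1.0%. A group of 4 arrays stood apart from the other 20 on the first principal component of all genes, which held 9.15% of the variance: replicates 4 and 6 of the 0.5% group and replicates 4 and 5 of the 1.0% group. In these 4 arrays the neutrophil markers summed to 134 to 355, against 53.9 to 113 in the other 20, and 10 endothelial markers, all brighter than the median gene, to 701 to 807, against 837 to 1020, so neither sum overlapped. The sums of the other marker lists overlapped between these 4 arrays and the other 20. The part of these cell types in the results was not tested. For several members the value without the 4 arrays stands beside the value with them. Values given alone may move as well. Without these arrays the log2 difference of Txnrd1 at 1.0% went from 0.26 to 0.13. That of Keap1 at 0.5% went from -0.12 to -0.06, and that of Nqo1 at 1.0% from 0.12 to 0.07. In bulk tissue, fewer cells of a type and less RNA per cell cannot be told apart.

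The thioredoxin system held the member with the largest difference. Srxn1 encodes sulfiredoxin, which restores overoxidized peroxiredoxins. Its log2 level ran from 5.64 to 6.07 (median 5.87) in control mice, from 5.36 to 6.16 (median 6.00) at 0.1%, from 5.65 to 8.45 (median 6.01) at 0.5% and from 5.91 to 9.24 (median 6.84) at 1.0%. The 1.0% group overlapped control at its low end, and a few mice of the upper doses stood far above all others. At 1.0% Srxn1 lay above control by 1.35 on the log2 scale (SE 0.53, limma adjusted p = 0.453), 2.55-fold, and above the control mean in 6 of 6 mice. At 0.5% the difference was 0.77 (SE 0.53, adjusted p = 0.759) and at 0.1% it was 0.04. The slope was 1.41 per 1% quercetin (SE 0.45, adjusted p = 0.217).

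The high values of Srxn1 were those of the 4 arrays apart, in which the neutrophil sum is also high and the endothelial sum low. In these arrays Srxn1 stood at 7.96 to 9.24, against 5.36 to 7.29 in the other 20. Without them the difference was 0.50 at 1.0% (limma adjusted p = 0.582) and -0.00 at 0.5% (adjusted p = 0.998), and the slope 0.45 (adjusted p = 0.546). Replicates 4 to 6 of the 1.0% group lay 2.44 above control replicates 4 to 6, and replicates 1 to 3 lay 0.26 above control replicates 1 to 3. At 0.5% these values were 1.51 and 0.04. Mice were housed 3 to a cage, and the labels do not say whether these sets of 3 replicate numbers are cages. On the 3 other probe sets of Srxn1 the same 4 arrays stood above all 20 others as well: at 4.71 to 6.10 against a highest value of 4.68, at 6.04 to 7.35 against 5.47 and at 6.65 to 8.60 against 6.09.

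Txnrd1, the cytosolic thioredoxin reductase gene, ran from 7.06 to 7.55 (median 7.48) in control mice, 7.20 to 7.73 (median 7.47) at 0.1%, 7.37 to 8.02 (median 7.66) at 0.5% and 7.45 to 8.25 (median 7.57) at 1.0%. All groups overlapped, and the highest 1.0% mouse was replicate 5, one of the arrays apart. The slope was 0.27 (SE 0.13, limma adjusted p = 0.429), and without the 4 arrays it was 0.14 (adjusted p = 0.805). The other probe sets of Txnrd1 disagreed: 1 had a slope of -0.04 with differences of -0.23 at 0.5% and -0.07 at 1.0%, and 1 had a slope of 0.31 with differences of 0.58 and 0.55. The difference at 1.0% was 0.26 (95% interval -0.03 to 0.56, adjusted p = 0.63). Txn1, thioredoxin itself, was 0.02 above control at 1.0%, with an interval of -0.12 to 0.16. All 3 genes had a positive slope, while centred on array medians 2 did, and another, dimmer probe set of Txn1 had a slope of -0.18.

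**Figure D2:**
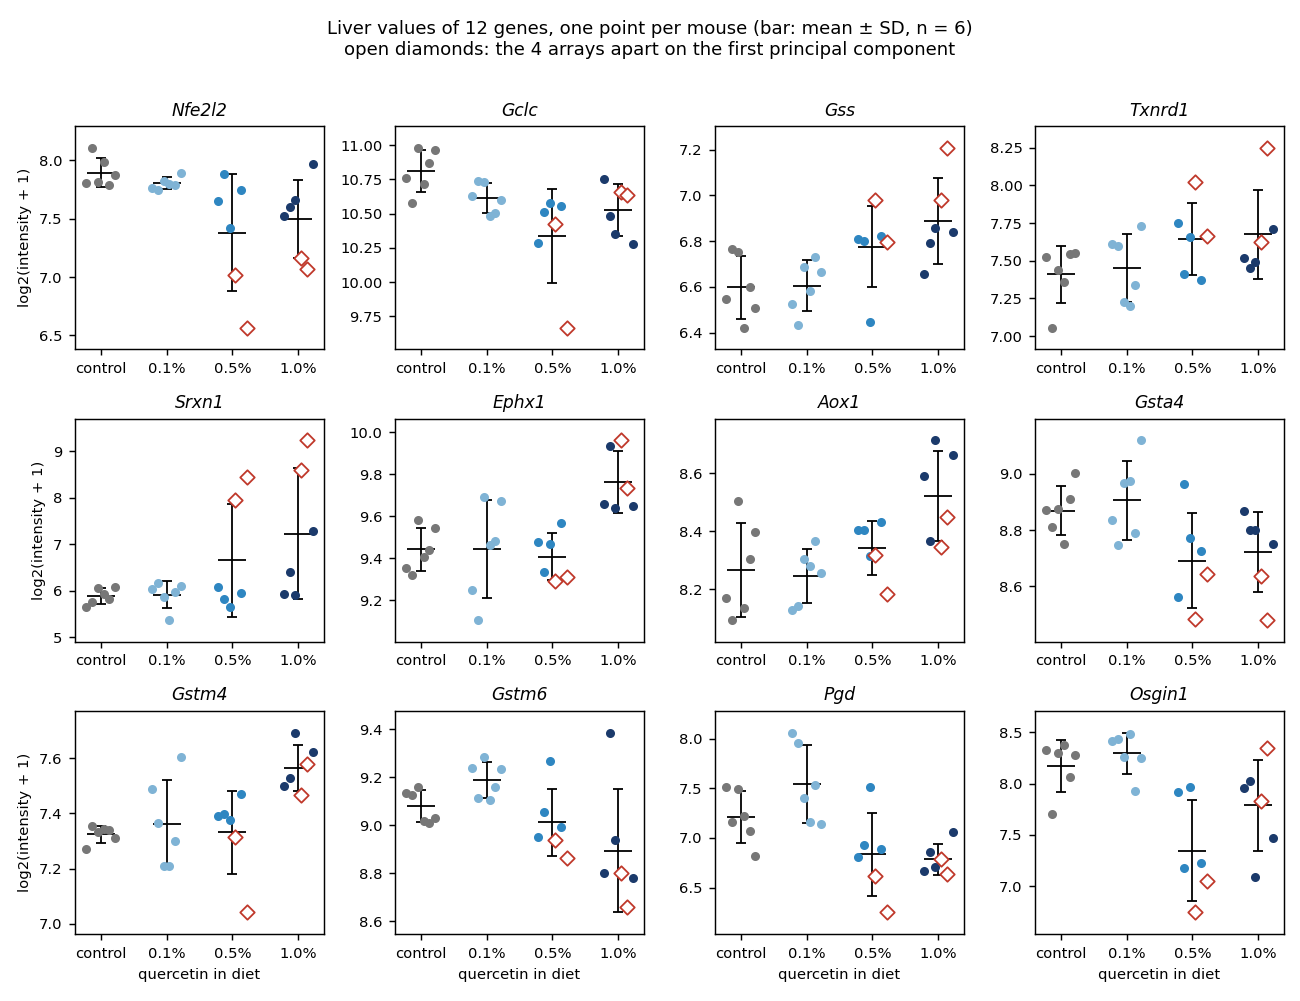
Quantile-normalized log2(intensity + 1) of the 12 members with an unadjusted p under 0.05 at a dose or for the slope, with 1 point per mouse by diet and bars for the group mean and SD. Open diamonds are the 4 arrays that stand apart on the first principal component, and Srxn1 stands at 7.96 to 9.24 in them.

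Of the regulators, Nfe2l2 lay lower at the upper doses, and the 2 probe sets of Keap1 differed in what they showed. The log2 level of Nfe2l2 ran from 7.79 to 8.11 (median 7.84) in control mice, 7.75 to 7.89 (median 7.80) at 0.1%, 6.57 to 7.88 (median 7.54) at 0.5% and 7.07 to 7.97 (median 7.56) at 1.0%. The groups overlapped at their upper ends, and the spread was wider at 0.5% and 1.0%. Against control the difference was -0.52 at 0.5% (SE 0.18, limma adjusted p = 0.55) and -0.40 at 1.0% (SE 0.18, adjusted p = 0.527). The slope was -0.42 (SE 0.17, adjusted p = 0.349).

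The lowest values of Nfe2l2 were again those of the 4 arrays apart, at 6.57 to 7.17 against 7.42 to 8.11 in the other 20. Without them the difference was -0.22 at 0.5% (limma adjusted p = 0.967) and -0.21 at 1.0% (adjusted p = 0.638), and the slope was -0.20 (adjusted p = 0.588). In all, 3 of 31 members had these 4 arrays wholly above or below the rest: Srxn1 above, and Nfe2l2 and Gstt1 below. Over all genes 333 lay wholly above (1.83%) and 478 wholly below (2.63%). A dimmer probe set of Nfe2l2 had a slope of 0.17 (SE 0.38, adjusted p = 0.94), so the direction did not carry over to it.

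On its brighter probe set Keap1 ran from 6.17 to 6.79 (median 6.40) in control mice, 6.28 to 6.70 (median 6.46) at 0.1%, 6.14 to 6.40 (median 6.32) at 0.5% and 6.23 to 6.64 (median 6.43) at 1.0%. The groups overlapped throughout. At 1.0% the difference from control was 0.01 (95% interval -0.20 to 0.23, adjusted p = 0.985), and at 0.5% it was -0.12 (adjusted p = 0.819). The other probe set of Keap1 lay at 4.06 to 4.91 at 0.5% and 4.92 to 5.46 in control mice, which did not overlap, by a narrow margin. That probe set was lower at 0.5% by a difference of -0.70 (SE 0.17, limma adjusted p = 0.338 over all probe sets tested). At 1.0% its difference was -0.26 (adjusted p = 0.766) and at 0.1% -0.42 (adjusted p = 0.906). It was 1 of 24 further probe sets of the members, looked at after the data were seen. On the probe sets used for the genes, 0.264% of all genes lay wholly below control at 0.5%.

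Of the 5 measured genes of glutathione supply and recycling, 3 lay above and 2 below control at 1.0%, while centred on array medians, or without the 4 arrays apart, it was 2 above and 3 below. Gclc encodes the catalytic subunit of glutamate-cysteine ligase, the rate-limiting enzyme of glutathione synthesis. It ran from 10.58 to 10.98 (median 10.82) in control mice, 10.48 to 10.74 (median 10.61) at 0.1%, 9.67 to 10.57 (median 10.47) at 0.5% and 10.28 to 10.75 (median 10.56) at 1.0%. Every mouse at 0.5% lay below every control mouse, though the nearest values were 10.57 and 10.58. This was 1 of 31 members wholly below control at that dose, as were 0.264% of all genes.

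At 0.5% Gclc lay below control by a log2 difference of -0.47 (SE 0.13, limma adjusted p = 0.5), and at 1.0% by -0.29 (SE 0.13, adjusted p = 0.545). Without normalization between arrays the value at 0.5% was -0.27 (adjusted p = 0.737). Another probe set of Gclc was at 0.00196 against control at 1.0%, so that direction rests on the brighter one. At 0.5% that other probe set differed by -0.16 (adjusted p = 0.857). It ran from 8.73 to 9.46 there and from 9.08 to 9.71 in control mice, so these groups overlapped on it. At 0.1% that probe set lay 0.29 above control (adjusted p = 0.936), where the brighter one had a difference of -0.20. Gclm, the modifier subunit of the same enzyme, was the 1 member whose mean was lower at each dose step, with a difference of -0.24 at 1.0% (95% interval -0.50 to 0.02, adjusted p = 0.608). Group means that are lower at each step were found for 5.29% of all genes.

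Gss encodes glutathione synthetase, the enzyme of the final step. It ran from 6.42 to 6.77 (median 6.57) in control mice, 6.43 to 6.73 (median 6.62) at 0.1%, 6.45 to 6.98 (median 6.80) at 0.5% and 6.66 to 7.21 (median 6.85) at 1.0%. Its groups overlapped, with 6 of 6 mice at 1.0% above the control mean. At 1.0% the difference was 0.29 (SE 0.10, limma adjusted p = 0.416). The slope was 0.31 (SE 0.09, adjusted p = 0.166), the lowest adjusted p for a slope among the members. Without the 4 arrays apart the difference at 1.0% was 0.19 (adjusted p = 0.665) and the slope 0.20 (adjusted p = 0.545). Replicates 4 to 6 at 1.0% lay 0.50 above their controls and replicates 1 to 3 lay 0.08 above theirs.

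Gsr, the gene of the reductase that returns oxidized glutathione to its reduced form, was 0.04 above control at 1.0% (95% interval -0.15 to 0.23). Slc7a11, which imports cystine for glutathione synthesis, was dim, brighter than 28.0% of genes. It ran from 0.47 to 3.07 (median 2.66) at 1.0% and from 0.85 to 3.34 (median 2.52) in control mice, and the interval of its difference, -0.82 to 1.19, allows changes in either direction.

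All 4 enzymes for quinones, carbonyls, epoxides and aldehydes lay above control at 1.0%, under each of 3 scalings. In the quantile-normalized values 2 of them (Ephx1 and Aox1) had an unadjusted limma p under 0.05, against 8.92% of all genes. Under the other scalings Ephx1 was still past that limit and Aox1 was not. Ephx1 encodes microsomal epoxide hydrolase, which opens reactive epoxides to diols. Its log2 level ran from 9.32 to 9.58 (median 9.42) in control mice, 9.11 to 9.69 (median 9.47) at 0.1%, 9.29 to 9.57 (median 9.40) at 0.5% and 9.64 to 9.96 (median 9.70) at 1.0%. The 1.0% mice lay above every control mouse and every 0.5% mouse, while the other groups lay among each other. Ephx1 and Gstm4 were the 2 of 31 members wholly above control at 1.0%, as were 0.401% of all genes.

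At 1.0% Ephx1 lay above control by 0.32 on the log2 scale (SE 0.10, limma adjusted p = 0.365), 1.25-fold, and above 0.5% by 0.36 (SE 0.10, adjusted p = 0.492). The differences at 0.1% (0.00) and 0.5% (-0.03) were smaller than their SE of 0.10. The value at 1.0% was 0.32 for replicates 1 to 3 and 0.32 for replicates 4 to 6, each against the control mice of those numbers. Its unadjusted p stayed under 0.05 in 12 of 12 other ways of processing and without each of the 24 arrays, with differences from 0.26 to 0.37 and from 0.28 to 0.35.

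Aox1, an aldehyde oxidase gene, ran from 8.09 to 8.50 (median 8.24) in control mice, 8.13 to 8.36 (median 8.27) at 0.1%, 8.18 to 8.43 (median 8.36) at 0.5% and 8.35 to 8.71 (median 8.52) at 1.0%. The groups overlapped, with 6 of 6 mice at 1.0% above the control mean. At 1.0% the difference was 0.25 (SE 0.09, limma adjusted p = 0.418) and the slope 0.27 (SE 0.08, adjusted p = 0.168). Without the 4 arrays apart both were larger, at 0.32 (adjusted p = 0.414) and 0.33 (adjusted p = 0.187).

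Nqo1, the quinone reductase gene widely used as a readout of Nrf2, was close to the middle of all genes in brightness, above 49.4% of them. It ran from 3.15 to 3.92 (median 3.65) in control mice, 1.41 to 3.67 (median 3.45) at 0.1%, 2.98 to 4.09 (median 3.93) at 0.5% and 2.73 to 4.31 (median 3.81) at 1.0%. The groups overlapped throughout. Its difference at 1.0% was 0.12 (SE 0.33, adjusted p = 0.95), and the interval of -0.56 to 0.81 covers differences of either sign. Cbr3, a carbonyl reductase gene brighter than 40.2% of genes, was 0.86 above control at 1.0% (95% interval -0.04 to 1.75, adjusted p = 0.598), with 6 of 6 mice above the control mean.

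**Figure D3:**
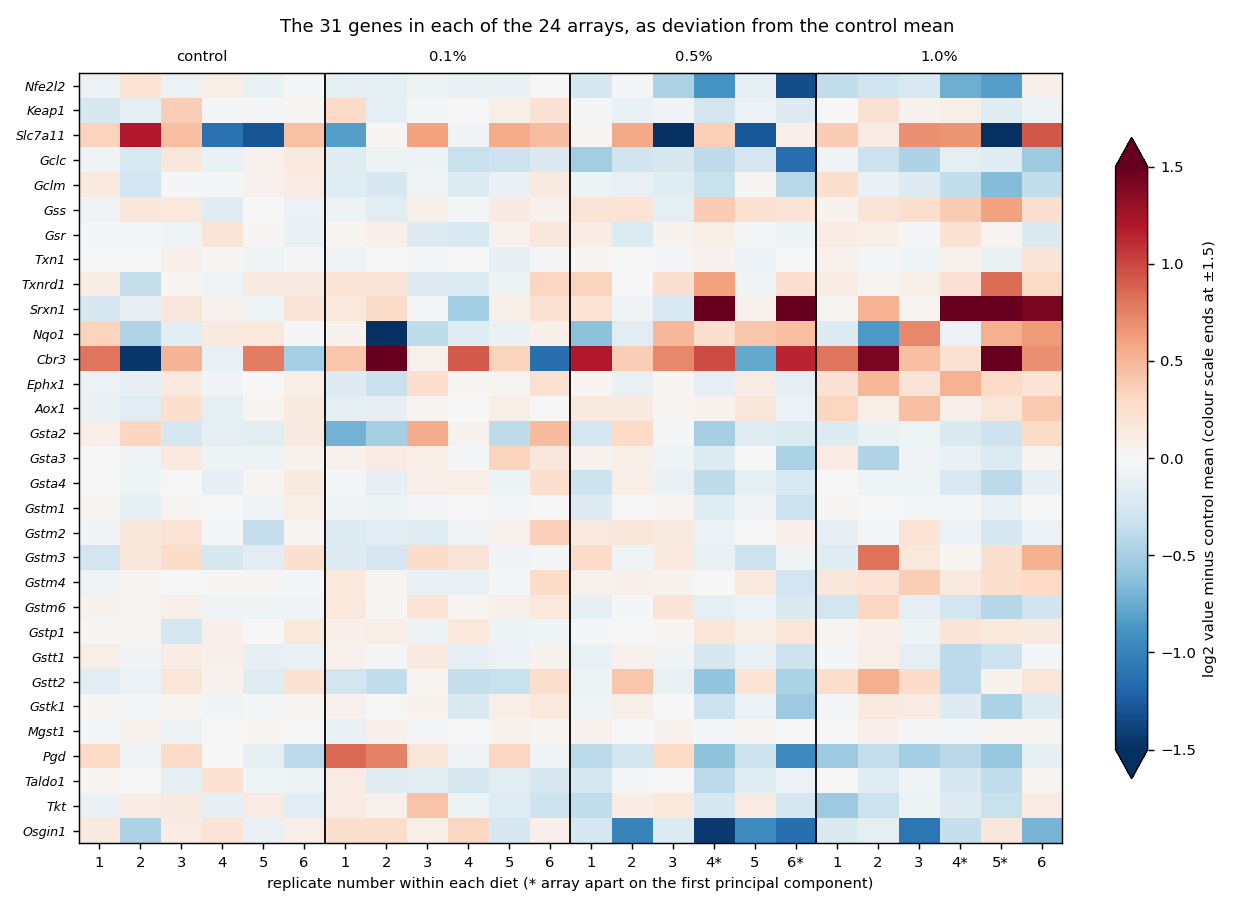
Log2 level of each measured member in each of the 24 arrays minus that gene's mean in control mice, with arrays in columns by diet and genes in rows by role. The 4 arrays that stand apart hold the highest Srxn1 and the lowest Nfe2l2 and Gstt1 values.

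The 13 measured glutathione S-transferases, which join glutathione to reactive compounds, did not move as a family. At 1.0% 5 lay above and 8 below control, while it was 6 and 7 without normalization, 4 and 9 centred on array medians and 7 and 6 without the 4 arrays apart. Only Gstm4 had an unadjusted p under 0.05 at 1.0%. Its level ran from 7.27 to 7.35 (median 7.34) in control mice, 7.21 to 7.60 (median 7.33) at 0.1%, 7.04 to 7.47 (median 7.38) at 0.5% and 7.47 to 7.69 (median 7.55) at 1.0%. The 1.0% mice lay above every control mouse, and control mice spread less than any other group.

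Gstm4 was above control at 1.0% by 0.24 (SE 0.09, limma adjusted p = 0.417), 1.18-fold. Without normalization between arrays the value was 0.28 (adjusted p = 0.912) and centred on array medians 0.17 (adjusted p = 0.7). A pair of the same family ran the other way along the dose. Gstm6 ran from 9.01 to 9.16 (median 9.08) in control mice, 9.11 to 9.29 (median 9.20) at 0.1%, 8.86 to 9.27 (median 8.97) at 0.5% and 8.66 to 9.39 (median 8.80) at 1.0%. The highest single value lay in the 1.0% group, so its groups overlapped. The slope was -0.24 (SE 0.09, adjusted p = 0.304), and 1.0% lay below 0.1% by a difference of -0.30 (SE 0.10, adjusted p = 0.332). Without the 4 arrays apart the slope was -0.15 (adjusted p = 0.722), and the difference from control at 1.0% was -0.10, against -0.19 with them.

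Gsta4, whose enzyme acts on products of lipid peroxidation, ran from 8.75 to 9.0 (median 8.87) in control mice, 8.75 to 9.12 (median 8.90) at 0.1%, 8.48 to 8.96 (median 8.68) at 0.5% and 8.48 to 8.87 (median 8.78) at 1.0%. All groups overlapped. Its slope was -0.19 (SE 0.09, limma adjusted p = 0.429), and without the 4 arrays apart it was -0.10 (adjusted p = 0.798). Gstt1 lay at 9.98 to 10.13 in those 4 arrays and at 10.23 to 10.52 in the other 20, with a difference of -0.13 at 1.0% (95% interval -0.33 to 0.06).

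Several transferases were close to control at 1.0%. Mgst1, the microsomal enzyme, differed by 0.01 (95% interval -0.11 to 0.14), Gstm1 by -0.02 (-0.17 to 0.13) and Gstp1 by 0.09 (-0.08 to 0.26). Of the rest, Gsta2, Gsta3, Gstk1 and Gstm2 differed by -0.11 to -0.06 and Gstm3 and Gstt2 by 0.27 and 0.15, with adjusted p from 0.662 to 0.922. Other probe sets turned the sign for some of these at 1.0%: 3 of Gstm1 lay 0.13 to 0.24 above control, 1 of Gstm3 had a difference of -0.32 and 1 of Mgst1 of -0.27. Transferase genes of a class are alike in sequence, and 5 of the 31 probe sets used, those of Gstm1, Gstm3, Pgd, Srxn1 and Tkt, are of the kinds that Affymetrix marks as able to bind related transcripts, so signal shared between relatives cannot be told apart.

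The 3 measured pentose phosphate genes, from a pathway that makes NADPH, lay below control at 1.0% under each of 3 scalings, while at 0.5% 3 lay below in the normalized values, 1 lay below without normalization and 2 centred on array medians. Pgd encodes 6-phosphogluconate dehydrogenase, an NADPH-forming enzyme. It ran from 6.82 to 7.51 (median 7.19) in control mice, 7.14 to 8.06 (median 7.47) at 0.1%, 6.25 to 7.51 (median 6.85) at 0.5% and 6.64 to 7.06 (median 6.75) at 1.0%. The 1.0% mice lay below every 0.1% mouse, as 1 of 31 members did, against 0.544% of all genes, and overlapped control. On another probe set of Pgd the 1.0% and 0.1% mice were also apart, at 6.05 to 6.56 and 6.61 to 7.74. On its remaining probe sets they overlapped, at 5.66 to 5.91 and 5.57 to 6.72, and at 5.74 to 6.49 and 5.92 to 7.15.

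Against control Pgd differed at 1.0% by -0.42 (SE 0.19, limma adjusted p = 0.517). On its other probe sets that difference was -0.22, -0.59 and -0.26. On the probe set used, the 0.1% mean lay 0.33 above control (adjusted p = 0.993). The gap between doses was wider: 1.0% lay below 0.1% by a difference of -0.75 (SE 0.19, adjusted p = 0.104), 1.69-fold lower, with 6 of 6 mice below the 0.1% mean. The slope was -0.63 (SE 0.19, adjusted p = 0.168). Tkt and Taldo1, transketolase and transaldolase of the non-oxidative branch, differed from control at 1.0% by -0.22 (95% interval -0.50 to 0.06) and -0.13 (-0.33 to 0.07). On its other probe sets Tkt differed by -0.04 and, on a dim one, by 0.04.

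Osgin1, an oxidative stress-induced growth inhibitor gene, had the lowest adjusted p of any member at 0.5%. It ran from 7.71 to 8.37 (median 8.29) in control mice, 7.93 to 8.48 (median 8.34) at 0.1%, 6.74 to 7.97 (median 7.20) at 0.5% and 7.09 to 8.35 (median 7.89) at 1.0%. Mice at 0.5% were the lowest and overlapped control only at the top of their range. At 0.5% the difference was -0.83 (SE 0.21, limma adjusted p = 0.373), 1.78-fold lower, with 6 of 6 mice below the control mean. At 1.0% it was -0.39 (SE 0.21, adjusted p = 0.63), so the lowest mean was not at the highest dose. By replicate number the 0.5% values differed from control by -0.43 for replicates 1 to 3 and -1.23 for replicates 4 to 6. In the 4 arrays apart Osgin1 ran from 6.74 to 8.35, and these overlapped the other 20. Its mean in them was 6.90 for the 0.5% group and 8.09 for the 1.0% group. Without the 4 arrays the difference from control was -0.60 at 0.5% and -0.54 at 1.0%, so these doses then lay close together.

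Between quercetin doses the members again had 0 adjusted calls. For 1.0% against 0.1% quercetin 9 of 31 had an unadjusted limma p under 0.05, against 9.42% of all genes, with 5 higher (4.21% of all genes) and 4 lower (5.21%), and 0.253% of all genes passed the adjusted test. For 0.5% against 0.1% it was 6 of 31, all lower, against 10.1% of all genes (5.74% lower), with 0.214% passing. For 1.0% against 0.5% it was 3 of 31 (Ephx1, Gstm4 and Osgin1), all higher, against 6.19% (3.25% higher), with 0.022% passing. Ephx1 was the 1 of 31 wholly above the 0.5% mice, as were 0.192% of all genes. These comparisons share their groups with those above and are no separate evidence.

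The nearest to a call was Osgin1 at 0.5% against 0.1%. The difference was -0.95 (SE 0.21, limma adjusted p = 0.0596), with 6 of 6 mice at 0.5% below the 0.1% mean. Over 36 other ways of processing, leaving out single arrays included, its adjusted p ran from 0.019 to 0.426 and was under 0.05 in 7. Pgd at 1.0% against 0.1% had adjusted p from 0.034 to 0.6 over the same 36 and was under 0.05 in 3.

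The order of group means along the dose differed among members. For 5 of 31 (Gss, Txnrd1, Srxn1, Cbr3 and Gstp1) the mean was higher at each step from control to 1.0%, 16.1% of the members beside 4.43% of all genes. The highest mean was at 1.0% for 13 members and the lowest at 0.5% for 12. These counts describe group means of the quantile-normalized values over all arrays and carry no test. The order did not hold under every setting. Without normalization between arrays Gss differed from control by 0.40 at 0.5% and 0.33 at 1.0%, and Txnrd1 by 0.46 and 0.30. Without the 4 arrays apart Srxn1 differed by 0.04 at 0.1% and -0.00 at 0.5%.

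**Figure D4:**
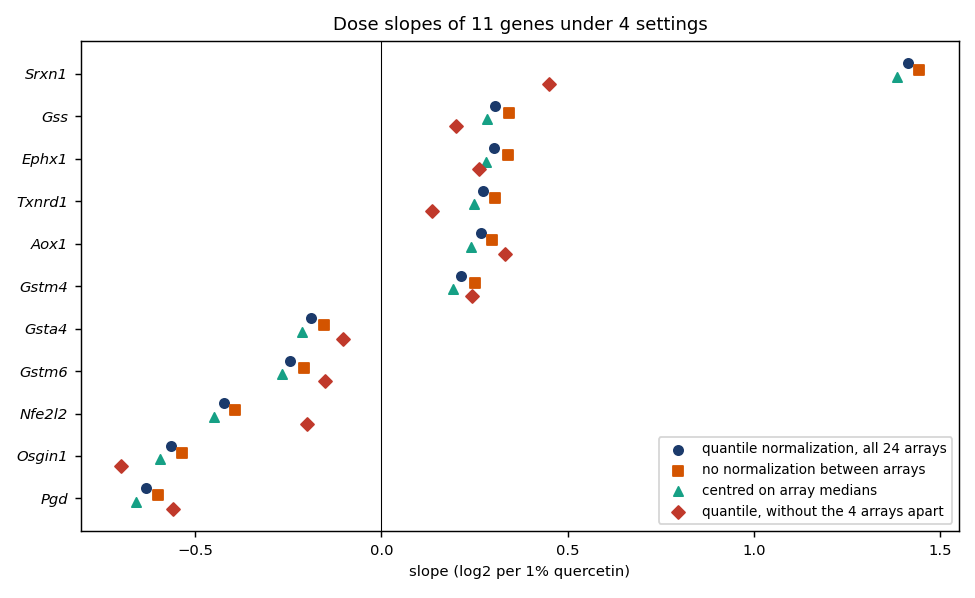
Slope over dose (log2 per 1% quercetin) of the 11 members with an unadjusted slope p under 0.05, from the quantile-normalized values, without normalization, centred on array medians and without the 4 arrays that stand apart. Srxn1 has the highest slope, 1.41, which is 0.45 without those 4 arrays.

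A wider list of 44 genes of the same pathways held 41 measured genes. None passed the adjusted test in any comparison. At 1.0% 5 of 41 (12.2%) had an unadjusted limma p under 0.05, against 8.92% of all genes, with 3 above control (4.45% of all genes) and 2 below (4.47%). For the slope it was 9 of 41 (22%), against 10.9%, with 6 upward (4.86%) and 3 downward (6.05%). Their median log2 difference at 1.0% was -0.00188, beside -0.00991 for all genes.

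The 6 with the smallest p for the slope were Ugdh, Gsto1, Chac1, Maff, Me1 and Glrx. Ugdh, which makes the sugar donor for glucuronidation, ran from 8.61 to 9.68 (median 8.77) at 1.0% and from 8.15 to 8.64 (median 8.28) in control mice, which overlapped by a little. Its difference was 0.66 (SE 0.21, limma adjusted p = 0.365) and its slope 0.65 (adjusted p = 0.154). Gsto1, an omega class transferase gene, ran from 8.05 to 8.33 (median 8.22) at 1.0% and from 7.78 to 8.05 (median 8.0) in control mice, meeting at 8.05, with a difference of 0.27 (adjusted p = 0.374). Me1, the NADPH-forming malic enzyme gene, was the 1 of the 6 with a downward slope, -0.49 (SE 0.18, adjusted p = 0.282).

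Chac1, whose enzyme breaks down glutathione, had a slope of 0.84 (SE 0.29, limma adjusted p = 0.247). It ran from 5.08 to 6.07 (median 5.46) at 0.5% and from 4.15 to 4.80 (median 4.39) at 0.1%, and these groups did not overlap. Control mice ran from 4.29 to 6.05 (median 4.66) and overlapped both. At 1.0% the difference from control was 0.53 (adjusted p = 0.613). Maff, a small Maf partner of Nrf2, was dim and scattered, from 0.36 to 4.06 in control mice and 3.75 to 5.10 at 1.0%, with a slope of 1.85 (SE 0.64, adjusted p = 0.254). Glrx, the glutaredoxin gene, had a slope of 0.25 (SE 0.09, adjusted p = 0.291).

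Groups that did not overlap were few in the wider list, and the genes named for this were chosen after their values were seen. At 0.5% against 0.1% quercetin, Bach1 and Chac1 were the 2 of 41 wholly above, as were 0.561% of all genes, and Gstm7 and Txnrd3 the 2 wholly below, as were 0.676%. At 1.0% against 0.1% it was Bach1 and Maff, 2 of 41 above, as were 0.517% of all genes. Bach1, which encodes a repressor that binds the same DNA elements as Nrf2, was also the 1 of 41 wholly above control at 1.0%, where 0.401% of all genes were. Its level ran from 7.08 to 8.19 (median 7.28) at 1.0% and from 6.68 to 7.06 (median 6.80) in control mice. The difference was 0.57 (SE 0.28, limma adjusted p = 0.572), and at 0.5% it was 0.96 (SE 0.28, adjusted p = 0.5). In the 4 arrays apart Bach1 stood at 7.39 to 9.25, against 6.38 to 7.54 in the other 20.

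**Figure D5:**
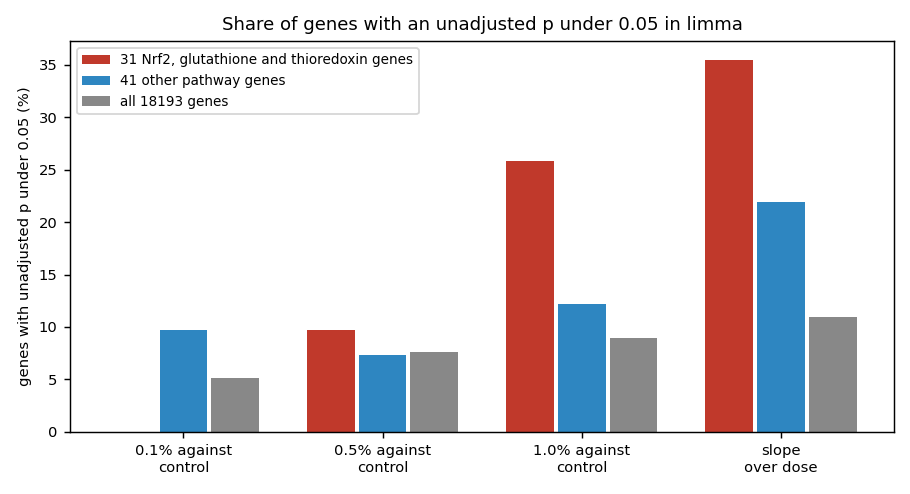
Percent of genes with an unadjusted limma p under 0.05 in each comparison, for the 31 measured members, the 41 other pathway genes and all 18193 genes. The members stand at 0 of 31 at 0.1% quercetin, where 5.11% of all genes do, and at 8 of 31 at 1.0%, where 8.92% do.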

How the data were processed

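Total RNA from 1 liver per mouse was labelled as biotin cRNA and hybridized to 1 Affymetrix array, per the labels' protocols. The deposited table holds a linear intensity for each of 45101 probe sets in every array, the lowest being 0.01. How the authors corrected background and summarized probes, and with which software, is not given in the sources used here. The values were taken as log2(intensity + 1) and quantile-normalized over all probe sets, so folds understate changes of dim genes, and no filter on low values was applied. By the platform annotation, 34945 probe sets with 1 symbol entered the work, 34741 of them with a RefSeq gene ID, while 932 that name several genes and 9211 with no symbol listed did not. These gave 18193 genes, and of several probe sets for a gene the one highest on average was taken. All 24 arrays entered 1 fit in limma 3.58.1 under R 4.3.3 (lmFit, eBayes, two-sided, Benjamini-Hochberg adjustment over all genes, threshold 0.05), with contrasts between the 4 diets, a test of any difference and a slope over the quercetin percent. The fits were tested on simulated data with independent noise and, for each gene, the same spread in all groups. That simulation had no arrays apart and no cages, so it cannot show how the fits behave with them. The number of arrays limits the precision, and the array medians of the deposited intensity ran from 4.78 to 7.58. The p-values measure the spread between mice within these groups.

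The members and gene lists were chosen with earlier results of these data known. Members with an unadjusted p under 0.05 at a dose or for the slope were described in full, with Nfe2l2, Keap1, Nqo1, Gclc and Txnrd1 in any case, and of the other pathway genes the 6 with the smallest p for the slope. Gsta1 was also to be described, and has no probe set of its own here. The second motif form and the single other probe sets were added after the data were seen. Alternatives were no normalization, centring on array medians, a pseudocount of 16, other choices of probe set, no dim genes, other eBayes options, array weights, fits with 2 groups, sets of 3 replicates as a random effect, the replicate number as a block, and leaving out single arrays or the 4 arrays apart. Replicate numbers are shared between groups, and 1 of 36 pairs of same-numbered arrays correlated above 0.1. No pairing was put in the main fit. A low correlation over all genes cannot show whether same-numbered mice were handled together, and the 4 arrays apart all have replicate numbers from 4 to 6. Mice were housed 3 per cage, the labels do not say which shared one, and the sets of 3 replicates tried as a random effect may or may not be cages.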

Additional observations from a re-analysis of the deposited data

Results flagged for a closer look

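In 9 of 124 sets of 6 mice (31 members in 4 diets), 7.26%, 1 mouse lay apart from the other 5 by more than Dixon's 95% limit for 6 values, which chance gives in about 5% of sets. Of these, 5 were in arrays that stand apart on the first principal component. Replicate 5 of the 1.0% group held 3: Slc7a11 was at 0.47 against 2.26 to 3.07 in the other mice of that diet, Txnrd1 at 8.25 against 7.45 to 7.71, and Gstm1 at 11.23 against 11.32 to 11.36. Replicate 6 of the 0.5% group held 2: Gclc at 9.67 against 10.28 to 10.57, and Gstm4 at 7.04 against 7.31 to 7.47. The other 4 were in arrays that do not stand apart. Gss was at 6.45 in replicate 3 of the 0.5% group, against 6.80 to 6.98. In the 0.1% group Nqo1 was at 1.41 in replicate 2, against 3.21 to 3.67, and Taldo1 at 8.68 in replicate 1, against 8.31 to 8.39. Gstp1 was at 12.35 in replicate 3 of the control group, against 12.62 to 12.77.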

How the results depend on the processing

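The count of 0 adjusted calls among the members held under all 12 other ways of processing at each dose, under the 11 that give a slope, and without each single array. Between doses it was 1 for 1.0% against 0.1% (Pgd) and 1 for 0.5% against 0.1% (Osgin1), each with a pseudocount of 16, without the genes below the median signal and with eBayes trend and robust options, and 1 for any difference (Osgin1) with the first 2 of these. Leaving out single arrays gave 0 to 2 calls for 0.5% against 0.1% and 0 to 1 for 1.0% against 0.1%: Osgin1 without replicate 1 or 3 of the 0.5% group or 3 or 5 of the 1.0% group, Pgd without replicate 3 of the 0.5% group, and Gstm6 without replicate 2 of the 1.0% group. Members at an unadjusted p under 0.05 numbered 2 at 0.1% with the most variable probe set per gene, 5 at 0.5% with a pseudocount of 16 and 6 with eBayes trend and robust options, 2 at 1.0% without normalization and 4 with the most variable probe set, and 4 for the slope without normalization. Without single arrays these counts ran from 0 to 1 at 0.1% (1 without replicate 4 or 6 of that group), 3 to 5 at 0.5% (5 without replicate 3 of that group), 6 to 9 at 1.0% and 9 to 15 for the slope. With the replicate number as a block they were 0, 4, 6 and 11, with 0 adjusted calls, and the block changed no call. Of values with an unadjusted p under 0.05, other probe sets turned the sign of the slope of Nfe2l2 (0.17, also the most variable probe set), the slope of Txnrd1 (-0.0371) and Gclc at 1.0% (0.00196). Their cause was not tested. Slc7a11, Cbr3 and Nqo1 have no value when those below the median signal are left out. Among 16 members with further probe sets, 24 in all, 0 of these passed an adjusted test against control or for the slope, and 15 of the 24 had the slope sign of the probe set used: 10 of 12 for the members described in full, while the 9 that did not were those of Nfe2l2, Txnrd1 (1 of 2), Txn1, Gstm1 (3), Gstm3, Mgst1 and Tkt (1 of 2). Probes for dim genes limit what these arrays can show for Slc7a11, Cbr3 and Nqo1.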

Other observations

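Prdx1, which encodes a peroxiredoxin that sulfiredoxin repairs, was read by 5 probe sets that the annotation gives to Prdx1 and Gm21399 together, so their signal cannot be given to 1 gene. On 1 of the 5 the log2 level ran from 10.04 to 10.31 at 0.5% and from 9.66 to 10.06 in control mice, with a difference of 0.31 (SE 0.12, limma adjusted p = 0.658 over all probe sets tested). At 1.0% that probe set lay 0.29 above control (adjusted p = 0.597). The other 4 probe sets differed from control at 1.0% by -0.01, 0.06, 0.01 and 0.16, with adjusted p from 0.869 to 0.994, so the difference was on 1 of the 5.

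Gsta1, an alpha class transferase gene, shared its 1 probe set with Gsta2 and Gm3776. Its log2 level averaged 6.44 ± 0.39 at 1.0% and 6.38 ± 0.35 in control mice (SD, n = 6 each), a difference of 0.06 (SE 0.20, limma adjusted p = 0.969).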
